A study of Mus musculus with 27 samples.

Results

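The unfolded protein response and chaperone genes are a set of 42 genes, matched by their GENCODE M21 symbol among the 43346 genes of the count table, that covers endoplasmic reticulum (ER) stress, the integrated stress response and the heat shock chaperones. All 42 were among the 14482 genes kept by the filter on low counts. The genes were grouped by their known functions, and the list was drawn up with earlier results of these data known. They fall into 15 ER lumen and membrane chaperones or folding enzymes, 4 genes of ER-associated degradation, 4 stress sensors and sensor outputs, 7 genes of the integrated stress response, 10 cytosolic heat shock genes and 2 subunits of the mitochondrial chaperonin.

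RNA was sequenced from hepatocytes, the main cells of the liver, isolated from females of 9 inbred mouse strains at 12 weeks of age. They comprised the wild-derived strains PWK/PhJ, CAST/EiJ and WSB/EiJ and the laboratory strains NZO/HlLtJ, DBA/2J, C57BL/6J, NOD/ShiLtJ, A/J and 129S1/SvImJ. Each strain had 3 libraries, labelled as biological replicates, and the labels name no other allele or agent. Libraries are called by strain and replicate number, for example PWK/PhJ 3. Levels are CPM, the counts of a gene scaled to a common library size. The p-values weigh differences against the spread between libraries of the same strain, estimated over these 27 libraries.

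Hepatocytes secrete large amounts of protein, all of which is folded in the ER. Unfolded protein in the ER is sensed by ATF6, IRE1 (Ern1) and PERK (Eif2ak3): ATF6 and the spliced form of XBP1 are known to raise ER chaperones, and PERK acts through ATF4, the factor shared with the integrated stress response to amino acid lack. In the cytosol the factor HSF1 raises the heat shock chaperones, with Hspa1a and Hspa1b, the inducible HSP70 genes, as its best known targets.

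The promoter windows of 7 ER chaperones and of Syvn1 hold a common motif, shown here because most of these 8 genes were low in the same strain (below). The ER stress response element, CCAAT and CCACG with 9 bases of any kind (N) between them, is the known binding site of ATF6 together with the CCAAT factor NF-Y. RefSeq promoter windows (GRCm38.p6, 250 bases before to 50 after each gene start) were found for 35 members and searched on both strands. A match was found in 8 members, against 0.119% of all 32851 windows. The 9 matches follow, written 5′ to 3′ on the strand of the match, with the fixed letters of the motif in capitals and the spacer in lower case.
Hspa5 (chr2:34772025-34772043, 65 bases before the gene start): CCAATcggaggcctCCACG
Hsp90b1 (chr10:86705638-86705656, 212 bases before the start): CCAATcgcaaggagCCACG
Hsp90b1 (chr10:86705533-86705551, 107 bases before the start): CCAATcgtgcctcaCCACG
Calr (chr8:84847075-84847093, 162 bases before the start): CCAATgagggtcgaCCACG
Canx (chr11:50325800-50325818, 145 bases before the start): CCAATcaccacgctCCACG
Pdia6 (chr12:17266491-17266509, 98 bases before the start): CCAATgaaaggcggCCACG
Dnajc3 (chr14:118937827-118937845, 105 bases before the start): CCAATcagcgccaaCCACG
Creld2 (chr15:88819520-88819538, 126 bases before the start): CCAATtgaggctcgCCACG
Syvn1 (chr19:6046532-6046550, 44 bases before the start): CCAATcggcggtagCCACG
A related element, ATTGG and CCACG with 1 base between them, was found in Dnajb11 and Herpud1, against 0.0365% of all windows. The windows are reference sequence and say nothing of the letters in the other strains.

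The libraries held between 17015956 and 35078511 estimated counts, so that 1 count was worth 0.0253 to 0.0516 CPM. Summed hepatocyte markers, 10 of 10 present in every library, ran from 102493 CPM to 307309 CPM, with the highest strain means in A/J and WSB/EiJ. Summed Kupffer cell markers (liver macrophages, 11 of 11 present) had strain means between 61.7 CPM in 129S1/SvImJ and 254 CPM in C57BL/6J, and endothelial markers (11 measured) between 87.8 CPM in NZO/HlLtJ and 464 CPM in PWK/PhJ. Summed stellate cell markers ran from 21.4 to 114 CPM, lymphocyte markers from 0.797 to 12.1 CPM and bile duct markers from 1.57 to 9.64 CPM. Every measured Kupffer, endothelial and hepatocyte marker had counts in all libraries. The stellate marker Col1a1 was at 0 in 4 libraries, and at least 1 lymphocyte marker was at 0 in 19 and at least 1 bile duct marker in 21. In such bulk samples, fewer cells of a type and less RNA per cell cannot be told apart. Several single libraries stood apart from the other 2 of their strain in these genes, and are given where they bear on a result.

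A difference among the 9 strains was called for 37 of 42 members at an adjusted p under 0.05 (edgeR quasi-likelihood test, Benjamini-Hochberg adjustment over all tested genes), where 74.2% of all tested genes were called. By role, 14 of 15 ER chaperones, 3 of 4 degradation genes, 4 of 4 sensors, 6 of 7 integrated stress response genes, 8 of 10 heat shock genes and 2 of 2 chaperonin genes were called. The median share of variance between strains was 69.5% over the members and 66.6% over all tested genes. The 5 members not called were Manf, Edem1, Ddit3, Hsp90ab1 and Dnajb1, with adjusted p from 0.061 to 0.164. The F statistics were led by Hspa1a (27.4), Hspb1 (15.4) and Atf6 (15).

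**Figure D1:**
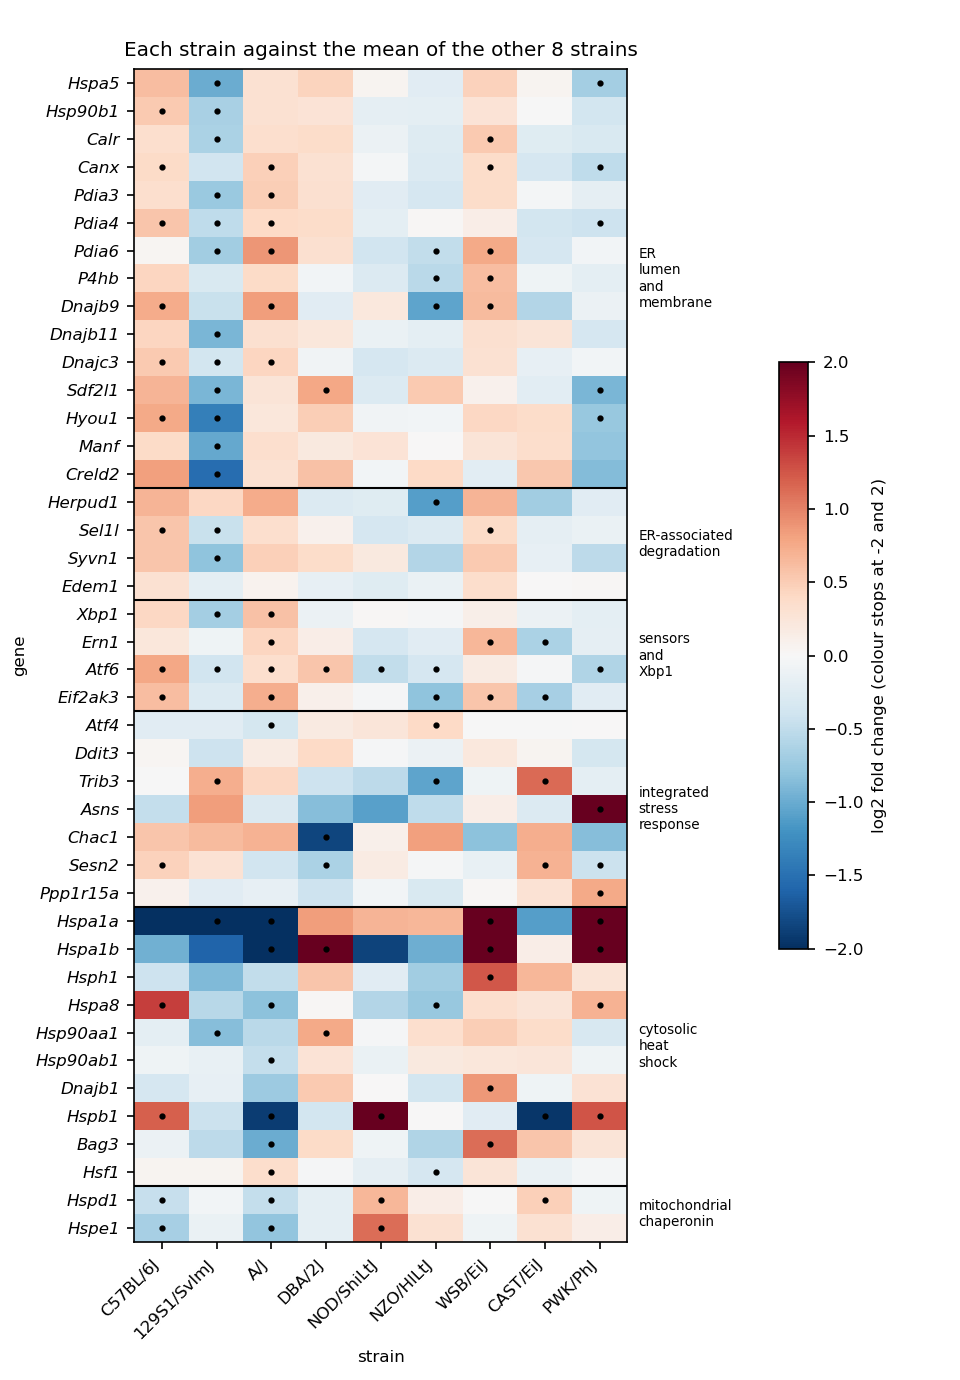
Heat map of the fitted log2 fold change of each of the 42 genes (rows, in role groups) in each strain (columns) against the mean of the other 8 strains; a dot marks an adjusted p under 0.05. The column of 129S1/SvImJ is blue through the ER chaperones, with 12 of 15 called lower, and the heat shock rows reach the largest values.

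Each strain was then compared with the equal-weight mean of the other 8, on the log scale, so that a single very high strain does not dominate the reference. The 9 comparisons share libraries: a strain that is low in a gene raises the fold changes of the others. Adjusted p-values given below are edgeR's.

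In 129S1/SvImJ the ER chaperones were low as a group: 12 of 15 fell, none rose, and their median log2 fold change was -0.70, against 0.02 over all genes. Over all tested genes 7.86% were called lower in this strain. It held the lowest strain mean of 11 of the 15, as it did for 8.62% of all genes. Hspa5 encodes BiP, the central chaperone of the ER lumen. Its 129S1/SvImJ libraries were at 378, 387 and 503 CPM, and the other 24 libraries ran from 436 to 1390 CPM with a median of 873 CPM. Hspa5 fell by 1.00 on the log2 scale (SE 0.26, adjusted p = 0.00788), and 2 of the 24 other libraries lay within the 129S1/SvImJ range. Creld2, an ER-resident secreted factor (its values are given after they were seen, as are those of Hyou1, Pdia3, Dnajb11, Hsp90b1, P4hb, Edem1, Hsp90aa1 and Hsph1), had the largest fall of the group. It was at 10.9, 9.47 and 14.3 CPM against a mean of 34.6 CPM in the other strains, and fell by 1.52 on the log2 scale (SE 0.36, adjusted p = 0.0048).

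Hyou1, the ER HSP110 that exchanges nucleotide on BiP, was at 80.5, 77.2 and 102 CPM in 129S1/SvImJ, where the mean of the other 8 strains was 232 CPM. Its log2 fold change was -1.37 (SE 0.29, adjusted p = 0.00175). Hsp90b1 (the ER HSP90), Pdia3 (a disulfide isomerase that works with calreticulin) and Dnajb11 (a BiP cochaperone) were lower in all 3 libraries than in each of the other 24. For Pdia3 the 3 values were 331, 310 and 351 CPM, and the lowest of the others was 388 CPM in NZO/HlLtJ 3. For Dnajb11 they were 55.5, 49.5 and 57.8 CPM, below 68.5 CPM in A/J 2. Only 0.539% of all tested genes lay so wholly below the rest in this strain. The other members called lower there were Calr, Pdia4, Pdia6, Dnajc3, Sdf2l1 and Manf of the lumen group, the degradation genes Sel1l and Syvn1, Xbp1, Atf6, Hspa1a and Hsp90aa1. P4hb, Canx and Dnajb9 had log2 fold changes below 0 that missed the threshold.

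Of the 8 genes with the ER stress response element shown above, 7 were called lower in 129S1/SvImJ, all but Canx, with a median log2 fold change of -0.68. Of the 9 lumen and degradation genes whose window held no match to this element, 5 were called lower, with a median of -0.45. Among these 9 are Dnajb11, called lower, and Herpud1, not called in this strain, whose windows hold the related element. Hyou1 and Manf, which had no RefSeq window, were both lower. Lower calls were thus found in genes with and without these exact letters. A search for exact letters in 300-base reference windows cannot show that a gene lacks a site, and the part of the element was not tested.

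The mean of the summed Kupffer cell markers was also lowest in 129S1/SvImJ, with libraries from 43.3 to 93.2 CPM, though DBA/2J 4 and NZO/HlLtJ 3 were lower still. Their part in the result was not tested beyond the following fit: with Kupffer and endothelial list means as covariates 8 of the 15 ER genes were called lower there. The 4 calls lost were Manf (-1.02, against -1.02 without the covariates), Sdf2l1 (-0.95 against -0.91), Dnajc3 (-0.39 against -0.37) and Pdia4 (-0.46 against -0.51), with adjusted p from 0.0605 to 0.0934. Leaving out 129S1/SvImJ 1 or 129S1/SvImJ 2 left 5 of the 15 and 6 of all 42 members called.

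In PWK/PhJ all 15 ER chaperones had a fitted value below 0, with a median of -0.36, and 5 were called lower, where 14.8% of all genes were. The 5 were Hspa5, Canx, Pdia4, Sdf2l1 and Hyou1. Sdf2l1, a component of the ER chaperone complex, was at 14.8, 13.2 and 9.79 CPM in PWK/PhJ and at 13.0, 10.7 and 14.3 CPM in 129S1/SvImJ, and at 34.0, 35.9 and 37.9 CPM in DBA/2J, which did not overlap with them. Its log2 fold change in PWK/PhJ was -0.92 (SE 0.28, adjusted p = 0.0123). Hspa5 was at 458, 535 and 552 CPM in PWK/PhJ, with a log2 fold change of -0.68 (SE 0.25, adjusted p = 0.0367). The Hspa5 levels of PWK/PhJ and 129S1/SvImJ overlapped, as did every pair of neighbours in the order of strain means from C57BL/6J (1141 CPM) down to 129S1/SvImJ (423 CPM). The count of 5 called lower became 2 without PWK/PhJ 1 or PWK/PhJ 2, without PWK/PhJ 3 there were 0, and without C57BL/6J 1 or A/J 2 there were 8. Endothelial markers, highest in this strain, ran from 255 to 847 CPM over its libraries, and with the marker covariates Hyou1 was no longer called lower (-0.93, adjusted p = 0.0634), while Hspa5, Canx, Pdia4 and Sdf2l1 were.

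In C57BL/6J, A/J and WSB/EiJ several ER chaperones were called higher. In C57BL/6J and A/J all 15 genes had fitted values above 0, with medians of 0.53 and 0.34, and 6 were called higher in each, where 11.6% and 15.9% of all genes were. In WSB/EiJ 14 of 15 were above 0, with a median of 0.36, and 5 were called higher, where 15.5% of all genes were. DBA/2J had a similar median of 0.32, with 12 of 15 above 0, but only Sdf2l1 was called higher, where 9.5% of all genes were. Pdia6, a disulfide isomerase known to limit IRE1 signalling, was at 578, 441 and 731 CPM in A/J and at 542, 396 and 689 CPM in WSB/EiJ. DBA/2J 3, at 467 CPM, was above the lowest library of each, so both strains overlapped the rest. The log2 fold change of Pdia6 was 0.88 in A/J (SE 0.14, adjusted p = 6.42e-05) and 0.76 in WSB/EiJ (SE 0.14, adjusted p = 0.000304). In C57BL/6J Pdia6 was at 293, 422 and 331 CPM and was not called.

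Canx, the membrane lectin chaperone calnexin, was at 501, 365 and 613 CPM in A/J, at 482, 449 and 439 CPM in WSB/EiJ and at 385, 502 and 499 CPM in C57BL/6J, and was called higher in all 3 strains, by 0.36 to 0.48 on the log2 scale. The C57BL/6J value of Canx became 0.23 (adjusted p = 0.433) with the marker covariates. Dnajb9 (ERdj4), a J protein that brings BiP to IRE1, was at 37.3, 62.1 and 88.0 CPM in C57BL/6J and at 81.3, 37.0 and 80.9 CPM in A/J. In NZO/HlLtJ the 3 libraries were at 18.9, 23.4 and 19.4 CPM, and the other 24 ran from 20.5 to 88.0 CPM. Dnajb9 rose in C57BL/6J, A/J and WSB/EiJ and fell by 1.06 on the log2 scale in NZO/HlLtJ (SE 0.25, adjusted p = 0.00261). Its C57BL/6J value of 0.74 became 0.66 and was not called (adjusted p = 0.201) with the marker covariates. NZO/HlLtJ also had lower Pdia6 and lower P4hb, the disulfide isomerase that was the most abundant member per length, at 647 CPM per kilobase over all libraries. In NZO/HlLtJ 12 of 15 ER genes were below 0, with a median of -0.23, and its 3 called lower stand beside 12.9% of all genes. The count was 1 without each NZO/HlLtJ library in turn and also with the marker covariates.

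Single libraries carried much of the spread within these strains. A/J 2 was the lowest of its strain in 15 of 15 ER genes, where it was lowest for 24.3% of all tested genes, and C57BL/6J 1 was the lowest in 15 of 15, against 38.3% of all genes. The median differences from the other 2 libraries were -0.87 and -0.57 on the log2 scale. CAST/EiJ 1 was lowest and CAST/EiJ 5 highest in 15 of 15, against 29.4% and 32.2% of all genes. Of the 14 other ER genes, 7 had the same highest library as Hspa5 in at least 7 of 9 strains, as 1.03% of all genes did, and in Manf and Creld2 it was the same in 8. In A/J, for example, Hspa5 was at 1145, 436 and 1242 CPM and Creld2 at 38.7, 16.4 and 51.1 CPM, so that A/J 2 lay within the 129S1/SvImJ range for Hspa5 and just above it for Creld2. A/J 2 also had the highest Kupffer marker sum of its strain, 299 CPM against 139 and 202 CPM. The Kupffer sum was highest in C57BL/6J 1 within C57BL/6J too, 285 CPM against 264 and 214 CPM. In PWK/PhJ the highest sum, 450 CPM, was in PWK/PhJ 1, the highest library for 9 of the 15. DBA/2J 4 was the lowest of its strain in 12 of 15 ER genes and had its strain's lowest Kupffer sum, 35.8 CPM against 134 and 199 CPM. The summed hepatocyte markers were lowest of their strain in A/J 2 (227027 CPM), C57BL/6J 1 (138965 CPM) and DBA/2J 4 (120670 CPM), but in CAST/EiJ they were highest in CAST/EiJ 1 (115777 CPM) and lowest in CAST/EiJ 5 (102493 CPM). The part of these markers in the differences between libraries was not tested.

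The counts of called genes followed those libraries. Without A/J 2, C57BL/6J 1 and PWK/PhJ 3 together, 13 of 15 ER genes were called higher in C57BL/6J, 11 in A/J and 6 in WSB/EiJ, and 14 were called lower in 129S1/SvImJ and 6 in NZO/HlLtJ. These 3 libraries were chosen after their values were seen. A/J 2 and C57BL/6J 1 were the lowest of their strains in all 15 ER genes, so higher ER levels in A/J and C57BL/6J without them were fixed by the choice. The C57BL/6J count was 12 without C57BL/6J 1, 11 without A/J 3, 0 without C57BL/6J 2 and 1 without C57BL/6J 4, and DESeq2 called 10. The A/J count was 11 without A/J 2, 3 without A/J 1 and 1 without A/J 3. In WSB/EiJ it was 2, 3 and 1 without WSB/EiJ 2, 3 and 4 respectively. With the marker covariates 1 ER gene was called higher in C57BL/6J, 4 in A/J and 7 in WSB/EiJ. Besides Canx and Dnajb9, the C57BL/6J calls lost were Hyou1 (0.76, against 0.75 without the covariates), Pdia4 (0.49 against 0.56) and Hsp90b1 (0.43 against 0.53). In A/J they were Pdia3 (0.45 against 0.49) and Pdia4 (0.42 against 0.40).

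**Figure D2:**
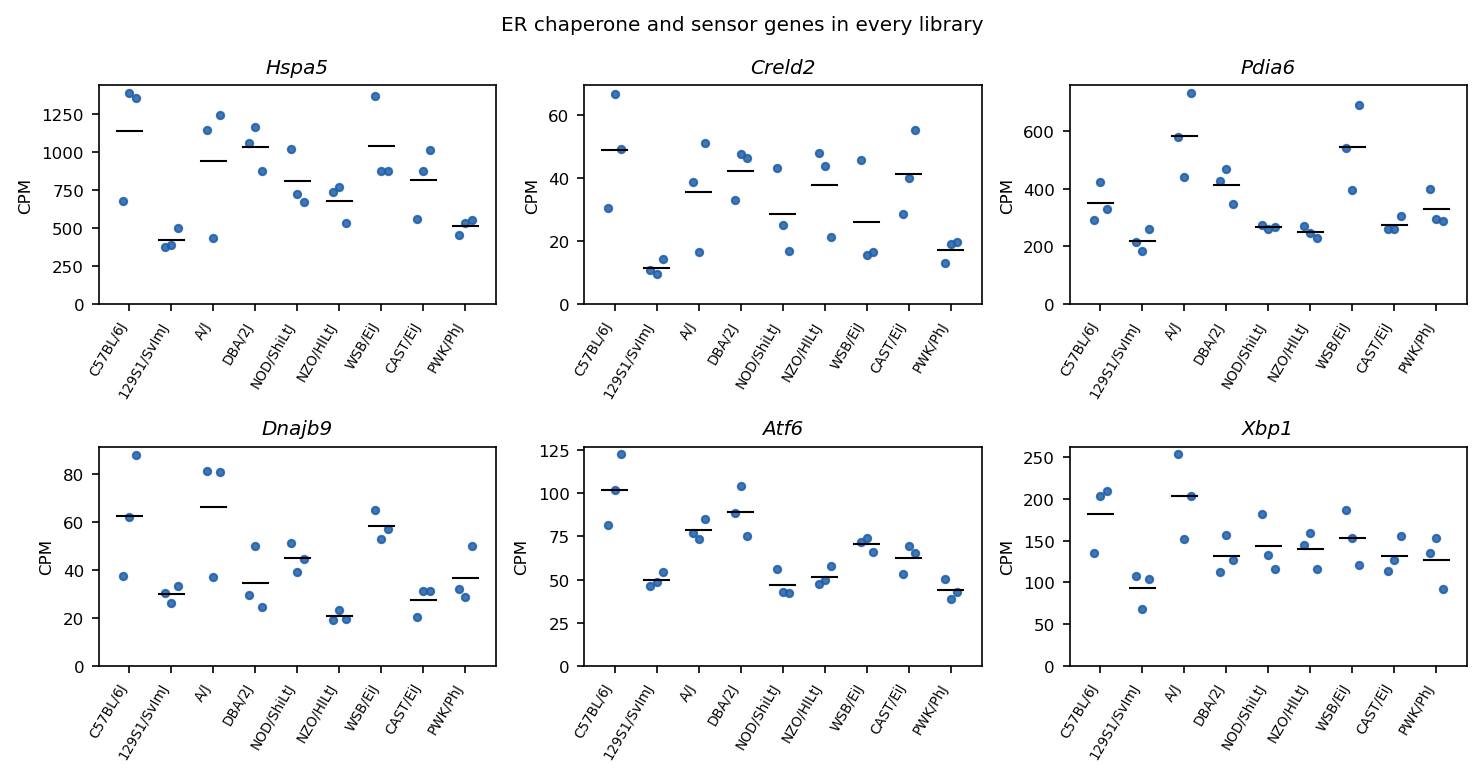
CPM of 6 ER chaperone and sensor genes in every library, by strain; points are libraries and lines are strain means, on axes that start at 0. In Hspa5 and Creld2 the 129S1/SvImJ points sit near the bottom, beside the low A/J 2 point, and in Atf6 the mean line of C57BL/6J is the highest.

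Among the degradation genes, Sel1l and Syvn1 form the membrane ubiquitin ligase that clears misfolded ER protein. Sel1l was at 211, 255 and 277 CPM in C57BL/6J and at 135, 133 and 129 CPM in 129S1/SvImJ, which do not overlap. It rose in C57BL/6J by 0.56 (SE 0.13, adjusted p = 0.00299) and in WSB/EiJ by 0.39, and fell by 0.45 in 129S1/SvImJ, all on the log2 scale. Syvn1 was at 53.5, 41.8 and 65.7 CPM in 129S1/SvImJ and at 72.2, 124 and 174 CPM in C57BL/6J, and fell by 0.81 in 129S1/SvImJ (SE 0.23, adjusted p = 0.0177). Sel1l was not called with the marker covariates in C57BL/6J (0.42, adjusted p = 0.103) or 129S1/SvImJ (-0.35, adjusted p = 0.115), nor Syvn1 in 129S1/SvImJ (-0.70, adjusted p = 0.0686).

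Herpud1, which recruits ubiquitinated clients to this ligase, did not share the 129S1/SvImJ pattern: its libraries there were at 187, 224 and 613 CPM. It was lowest in NZO/HlLtJ, at 96.9, 104 and 200 CPM, where it fell by 1.10 on the log2 scale (SE 0.39, adjusted p = 0.0381). The lowest single library was CAST/EiJ 5 at 94.8 CPM and the highest A/J 3 at 668 CPM, and 8 of the 24 other libraries were at or below the highest of NZO/HlLtJ. With the marker covariates the value was -0.68 (adjusted p = 0.319), and the strain effect of Herpud1 had an adjusted p of 0.0536. Edem1, a lectin of the same pathway, ranged from 164 to 333 CPM and was not called in any strain.

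Atf6 had the largest F among the sensors, with 87.1% of its variance between strains. It was at 81.6, 102 and 123 CPM in C57BL/6J, at 88.3, 104 and 75.2 CPM in DBA/2J and at 77.0, 73.3 and 85.4 CPM in A/J. In PWK/PhJ it was at 50.3, 38.9 and 42.7 CPM, and in NOD/ShiLtJ at 56.0, 42.6 and 42.5 CPM. All C57BL/6J and DBA/2J libraries were thus above all of PWK/PhJ and NOD/ShiLtJ. Atf6 rose in C57BL/6J by 0.77 (SE 0.11, adjusted p = 1.83e-05), in DBA/2J by 0.55 (SE 0.11, adjusted p = 0.00122) and in A/J by 0.34. It fell in PWK/PhJ by 0.60 (SE 0.13, adjusted p = 0.000646), in NOD/ShiLtJ by 0.49 (SE 0.13, adjusted p = 0.0084), in 129S1/SvImJ by 0.39 and in NZO/HlLtJ by 0.34. The last 2 calls were lost with the marker covariates, at -0.32 (adjusted p = 0.0752) and -0.12 (adjusted p = 0.59).

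Ern1 (IRE1, the kinase and nuclease that splices Xbp1) was at 166, 170 and 120 CPM in WSB/EiJ and at 65.4, 77.3 and 61.6 CPM in CAST/EiJ. It rose by 0.67 in WSB/EiJ (SE 0.14, adjusted p = 0.000881) and fell by 0.63 in CAST/EiJ (SE 0.16, adjusted p = 0.00303). Eif2ak3 (PERK, the kinase that limits translation) was at 9.10, 9.04 and 8.24 CPM in NZO/HlLtJ and at 9.99, 10.8 and 7.79 CPM in CAST/EiJ. It was at 26.7, 14.3 and 26.6 CPM in A/J. It fell in NZO/HlLtJ by 0.80 (SE 0.20, adjusted p = 0.00512) and in CAST/EiJ by 0.66, and rose in A/J by 0.73 (SE 0.18, adjusted p = 0.00366), in C57BL/6J by 0.61 and in WSB/EiJ by 0.55. Ern1 in A/J was not called with the marker covariates (0.45, adjusted p = 0.0515), nor was Eif2ak3 in C57BL/6J (0.45, adjusted p = 0.339), NZO/HlLtJ (-0.67, adjusted p = 0.0626) or CAST/EiJ (-0.56, adjusted p = 0.0601).

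Xbp1, whose unspliced and spliced forms a gene count cannot separate, was at 254, 153 and 203 CPM in A/J and at 108, 68.4 and 104 CPM in 129S1/SvImJ. These did not overlap. It rose by 0.58 in A/J (SE 0.17, adjusted p = 0.0141) and fell by 0.68 in 129S1/SvImJ (SE 0.19, adjusted p = 0.0154), and it was called in no other strain. Neither Xbp1 call held with the marker covariates although the values were close, at 0.51 in A/J (adjusted p = 0.115) and -0.62 in 129S1/SvImJ (adjusted p = 0.0742). The strain effect of Xbp1 then had an adjusted p of 0.206. All 4 sensor genes were called higher in A/J, where 15.9% of all genes were. The count was 2 without A/J 1, 0 without A/J 3 and 2 with the marker covariates.

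Among the integrated stress response genes, Atf4, the central factor, had a narrow range of 36.8 to 64.8 CPM. It was at 62.5, 61.1 and 64.8 CPM in NZO/HlLtJ, where it rose by 0.40 on the log2 scale (SE 0.12, adjusted p = 0.0127), and at 43.4, 36.8 and 38.6 CPM in A/J, where it fell by 0.35 (SE 0.12, adjusted p = 0.0402). Neither Atf4 call held with the marker covariates (0.33, adjusted p = 0.111, and -0.21, adjusted p = 0.348). Ddit3 (CHOP, the factor tied to cell death under lasting ER stress) stayed between 1.40 CPM in 129S1/SvImJ 2 and 3.82 CPM in DBA/2J 3. It was called in no strain, and its strain effect had an adjusted p of 0.164. Its strain means ran from 3.15 CPM in DBA/2J through 2.78 in WSB/EiJ, 2.71 in A/J, 2.54 in CAST/EiJ, 2.51 in C57BL/6J, 2.41 in NOD/ShiLtJ, 2.29 in NZO/HlLtJ and 1.97 in PWK/PhJ to 1.89 in 129S1/SvImJ, and each pair of neighbours overlapped.

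Trib3, a pseudokinase and target of ATF4 and CHOP, was at 17.5, 18.0 and 13.6 CPM in CAST/EiJ and at 9.83, 10.5 and 17.9 CPM in 129S1/SvImJ. It was at 3.47, 4.86 and 4.36 CPM in NZO/HlLtJ, the strain with the highest Atf4. It rose in CAST/EiJ by 1.14 (SE 0.24, adjusted p = 0.000568) and in 129S1/SvImJ by 0.73, and fell in NZO/HlLtJ by 1.06 (SE 0.29, adjusted p = 0.00991). With the marker covariates Trib3 was not called in 129S1/SvImJ (0.72, adjusted p = 0.132) or NZO/HlLtJ (-0.99, adjusted p = 0.0633), although the values were close. Sesn2, a leucine sensor of the mTORC1 pathway, was at 8.82 to 11 CPM in CAST/EiJ and at 4.18, 4.17 and 4.24 CPM in DBA/2J. Sesn2 rose by 0.70 in CAST/EiJ (SE 0.14, adjusted p = 0.000285) and fell by 0.64 in DBA/2J (SE 0.16, adjusted p = 0.00679). In C57BL/6J it was called higher, at 11.4, 6.57 and 6.69 CPM, and its value of 0.46 became 0.14 without the 3 libraries named above. With the marker covariates it was 0.51 and not called (adjusted p = 0.121). Sesn2 in PWK/PhJ was at 4.23, 5.81 and 4.28 CPM and fell by 0.43 (SE 0.15, adjusted p = 0.0335). That call was lost without PWK/PhJ 1 (-0.35, adjusted p = 0.169), without PWK/PhJ 3 (-0.36, adjusted p = 0.162), without the filter on low counts (-0.43, adjusted p = 0.0501) and with the marker covariates (-0.20, adjusted p = 0.473).

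Chac1, which degrades glutathione, was at 0.127, 0.653 and 0.670 CPM in DBA/2J, or 3, 13 and 21 counts. The other libraries had a median of 1.91 CPM, the lowest being WSB/EiJ 4 with 11 counts, and Chac1 fell by 1.84 in DBA/2J (SE 0.43, adjusted p = 0.00407). Asns, asparagine synthetase, was at 0.958, 1.17 and 1.46 CPM in PWK/PhJ, or 24, 34 and 44 counts. All other libraries were at 0.522 CPM or less, with at most 16 counts. The 3 PWK/PhJ libraries were thus above the other 24, as 3.3% of all genes were in this strain, and the log2 fold change was 2.52 (SE 0.39, adjusted p = 1.51e-05). Ppp1r15a (GADD34, which restores translation) was at 12.2, 9.28 and 7.97 CPM in PWK/PhJ and rose there by 0.76 (SE 0.19, adjusted p = 0.00347). With the marker covariates its strain effect had an adjusted p of 0.0763, while the PWK/PhJ value was 1.05 (adjusted p = 0.00762). The element TTGCATCA, known to be bound by ATF4 with C/EBP factors, was found in the windows of Herpud1 and Chac1, against 0.895% of all windows.

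In WSB/EiJ 5 of 10 cytosolic heat shock genes were called higher, as 15.5% of all genes were, and none was called lower. Hspa1a was at 79.9, 33.8 and 81.1 CPM in WSB/EiJ. The other 24 libraries ran from 0 CPM in 129S1/SvImJ 1 to 16.1 CPM in PWK/PhJ 3, with a median of 1.12 CPM. The WSB/EiJ libraries were all above the rest, which 1.65% of all genes were in this strain. The log2 fold change was 5.84 (SE 0.40, adjusted p = 4.16e-11). Hspa1b was at 89.7, 38.3 and 114 CPM in WSB/EiJ and at 58.2, 41.3 and 27.9 CPM in DBA/2J. It was at or under 22.7 CPM in all other libraries except PWK/PhJ 3, at 97.9 CPM. Hspa1a was lowest in A/J, at 0.0913, 0.374 and 0.0790 CPM, and in 129S1/SvImJ, at 0, 0.229 and 0.587 CPM, or at most 18 counts. Its log2 fold change was -3.71 in A/J (SE 1.04, adjusted p = 0.0103) and -3.04 in 129S1/SvImJ (SE 0.89, adjusted p = 0.0192). Hspa1b rose in WSB/EiJ by 3.31 (SE 0.46, adjusted p = 7e-06) and in DBA/2J by 2.26 (SE 0.50, adjusted p = 0.00224).

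The 2 genes cannot be fully separated by short reads: 52.7% of the 75-base stretches of Hspa1a also occur in Hspa1b, and their counts were not whole numbers in 26 and 27 libraries. They lie 9951 bases apart on chr17 in the same direction (GRCm38, Hspa1b chr17:34956436-34959238 and Hspa1a chr17:34969190-34972156), each with a single exon. Their promoters show the same likeness and are printed for that reason. Of the 250 bases before the RefSeq starts, 3 differ, in capitals.
Hspa1a (GRCm38.p6, chr17:34972157-34972406, minus strand): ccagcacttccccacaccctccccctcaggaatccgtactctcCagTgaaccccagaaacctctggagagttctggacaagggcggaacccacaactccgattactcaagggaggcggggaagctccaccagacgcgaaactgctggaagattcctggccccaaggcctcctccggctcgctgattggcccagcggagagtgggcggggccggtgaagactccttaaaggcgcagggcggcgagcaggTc
Hspa1b (GRCm38.p6, chr17:34959239-34959488, minus strand): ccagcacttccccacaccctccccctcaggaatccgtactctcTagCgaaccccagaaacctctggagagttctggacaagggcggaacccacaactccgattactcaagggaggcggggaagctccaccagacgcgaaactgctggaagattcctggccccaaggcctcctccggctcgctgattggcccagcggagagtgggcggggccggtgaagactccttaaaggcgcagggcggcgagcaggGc
The summed level of both genes is less exposed to that split. The sum was 170, 72.0 and 195 CPM in WSB/EiJ, 62.5, 44.6 and 29.3 CPM in DBA/2J and 7.99, 7.80 and 114 CPM in PWK/PhJ. In A/J it was 1.64, 3.18 and 3.04 CPM, the lowest strain mean at 2.62 CPM. With near-identical genes summed, the log2 fold change was 3.89 in WSB/EiJ (adjusted p = 3.71e-07) and -2.62 in A/J (adjusted p = 0.0154), while that in 129S1/SvImJ was not called (-1.87, adjusted p = 0.0713). With the marker covariates the A/J falls of Hspa1a (-3.32, adjusted p = 0.0666) and Hspa1b (-1.80, adjusted p = 0.185) were not called. The share of Hspa1a in the sum differed between strains: 41.5% to 47.1% in WSB/EiJ, 37.1% to 49.0% in NOD/ShiLtJ and 29.1% to 33.4% in NZO/HlLtJ, but 4.68% to 7.54% in DBA/2J and 6.58% to 8.54% in CAST/EiJ. These shares did not overlap between the first 3 strains and the last 2, and whether they reflect expression or the division of reads was not tested.

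**Figure D3:**
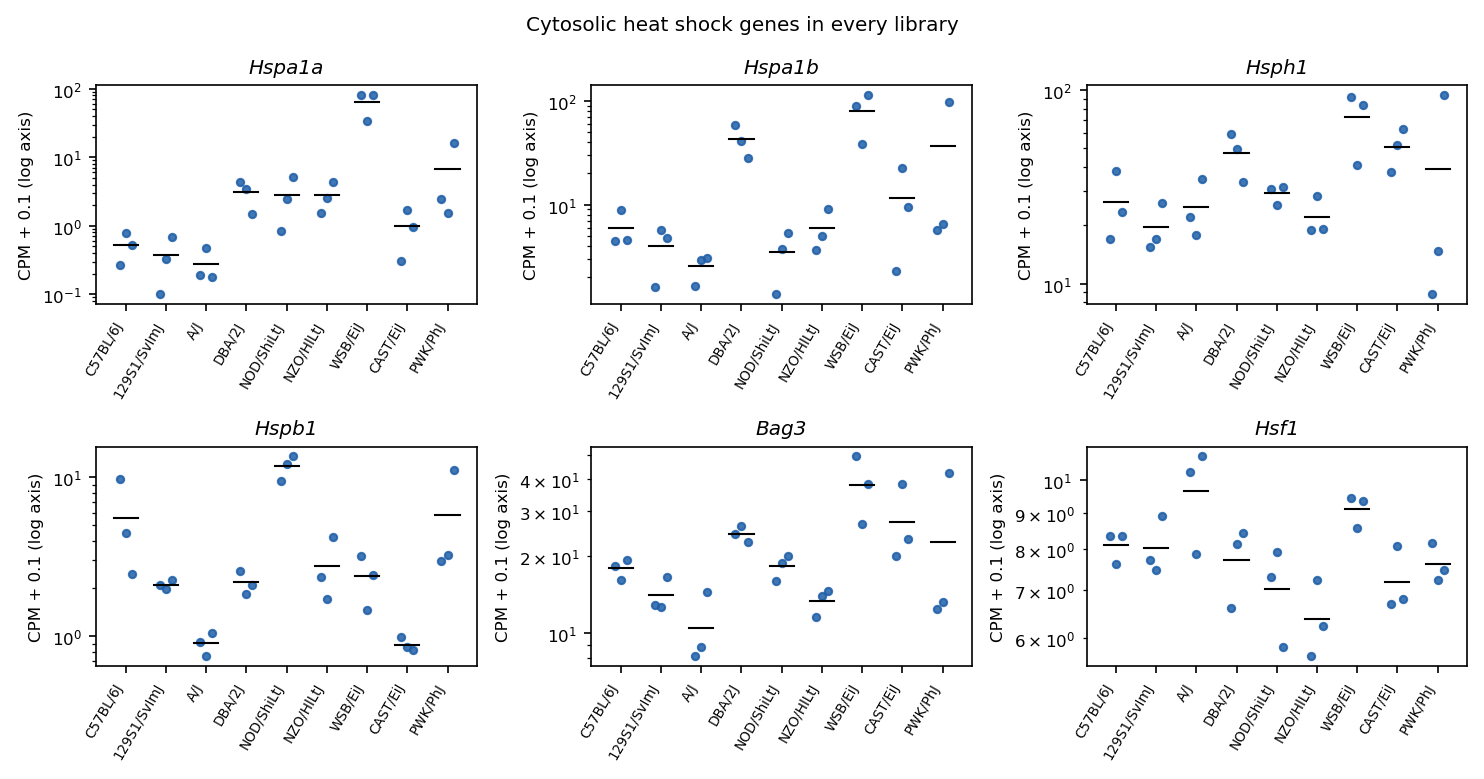
CPM plus 0.1 of 6 cytosolic heat shock genes in every library, by strain, on log axes; points are libraries and lines are means of CPM plus 0.1. The WSB/EiJ points of Hspa1a lie above all others, and PWK/PhJ 3 stands far above the other 2 PWK/PhJ points in Hspa1b, Hsph1, Hspb1 and Bag3.

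Bag3, the cochaperone that steers HSP70 clients to autophagy, was at 49.1, 26.6 and 38.3 CPM in WSB/EiJ and between 8.04 and 14.4 CPM in A/J. It rose by 1.11 in WSB/EiJ (SE 0.23, adjusted p = 0.000724) and fell by 0.99 in A/J (SE 0.28, adjusted p = 0.00979). Hsph1 (HSP110) was at 92.4, 40.7 and 83.8 CPM in WSB/EiJ and rose by 1.24 (SE 0.36, adjusted p = 0.0118). Dnajb1 (the HSP40 partner) was at 27.7, 14.1 and 29.2 CPM and rose by 0.86 (SE 0.29, adjusted p = 0.0288). Both overlapped other strains. The strain effect of Dnajb1 was not called, and that of Hsph1 was not called with the marker covariates (adjusted p = 0.0529), where both WSB/EiJ calls held. WSB/EiJ 3 was the lowest of its strain in 10 of 10 heat shock genes, against 30.6% of all genes, yet its Hspa1a level was still above every library of the other strains. Without WSB/EiJ 2 or WSB/EiJ 4, 3 of the 10 were called higher. The immediate early genes known to rise when cells are dissociated summed to between 163 and 209 CPM in WSB/EiJ, with a mean of 181 CPM. Over all libraries the sum ran from 96.1 to 360 CPM. Its strain means ran from 125 CPM in NOD/ShiLtJ to 251 CPM in PWK/PhJ, and the part of dissociation was not tested.

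A/J was the low strain for this group. In A/J 6 of 10 heat shock genes fell, where 11.6% of all genes did: Hspa1a, Hspa1b, Hspa8, Hsp90ab1, Hspb1 and Bag3. The factor Hsf1 was called higher there, at 10.2, 7.77 and 10.7 CPM against a mean of 7.55 CPM in the other strains (log2 fold change 0.35, SE 0.11, adjusted p = 0.0212). Hsf1 was lowest in NZO/HlLtJ, at 5.56, 7.14 and 6.13 CPM, and fell there by 0.34 (SE 0.12, adjusted p = 0.0334). Neither Hsf1 call held with the marker covariates, at 0.39 in A/J (adjusted p = 0.052) and -0.27 in NZO/HlLtJ (adjusted p = 0.213). Its whole range over 27 libraries was 5.56 to 10.7 CPM, narrow beside that of Hspa1a. The A/J count of 6 became 2 without A/J 1, 3 without A/J 2, 2 without A/J 3, 4 with near-identical genes summed and 1 with the marker covariates, where the Bag3 value was -0.83 (adjusted p = 0.0881).

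In PWK/PhJ 4 heat shock genes were called higher, Hspa1a, Hspa1b, Hspa8 and Hspb1, where 19.4% of all genes were, but none of these calls held without PWK/PhJ 3. That library was the highest of its strain in 9 of 10 heat shock genes, against 30.9% of all genes, with a median difference of 1.78 on the log2 scale. Hspa1b was at 5.63, 6.36 and 97.9 CPM in PWK/PhJ 1, 2 and 3, and Hsph1 at 8.71, 14.7 and 94.3 CPM. Hspb1 was at 2.88, 3.16 and 11.02 CPM. Hspa1a was at 2.36, 1.44 and 16.1 CPM, with a log2 fold change of 2.15 although its mean of 6.63 CPM was below the 9.39 CPM of the other strains, since WSB/EiJ raises an arithmetic mean more than a mean of log levels. Without PWK/PhJ 3, 0 of the 10 were called higher, with the marker covariates 1 and with near-identical genes summed 2, and Hspa1b went from 2.03 (SE 0.50, adjusted p = 0.0028) to -0.59 (adjusted p = 0.49). In the same library 11 of 15 ER genes were the lowest of the strain and 4 the highest. Its immediate early genes summed to 112 CPM, against 282 and 360 CPM in PWK/PhJ 1 and 2, and its Kupffer markers to 154 CPM, against 450 and 154 CPM.

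**Figure D4:**
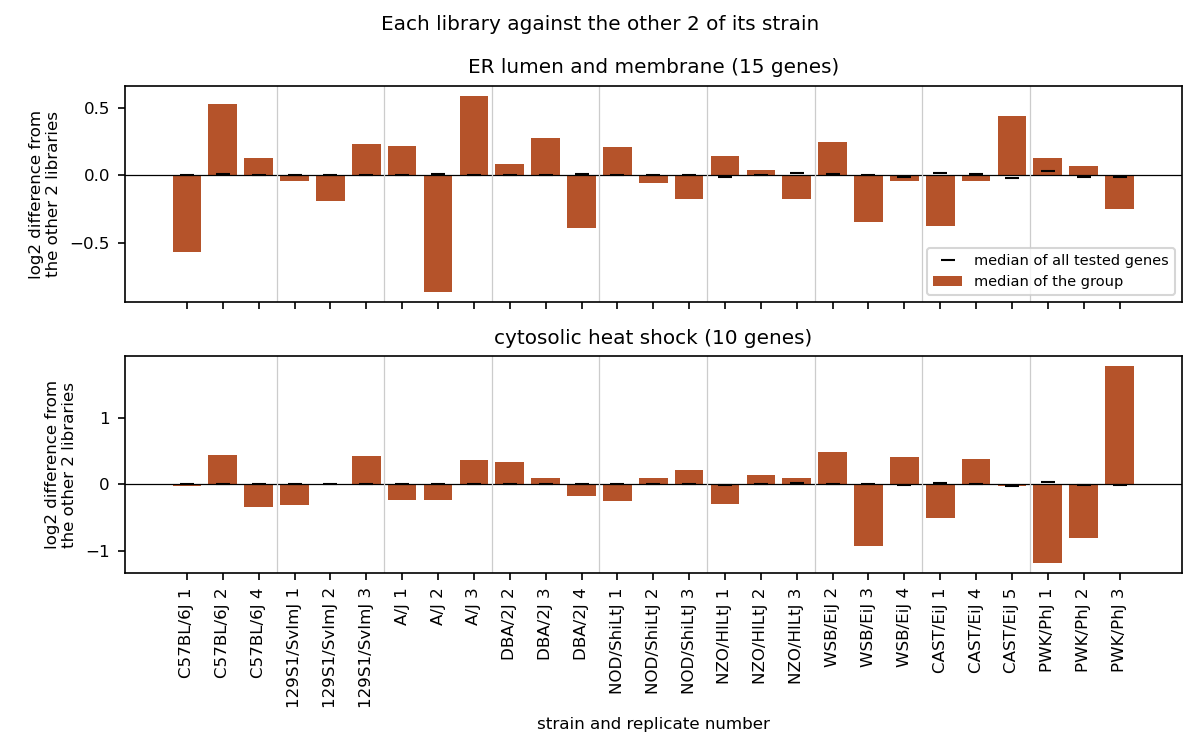
Median log2 difference of each library from the other 2 of its strain for the 15 ER genes (top) and the 10 cytosolic heat shock genes (bottom), with the median of all tested genes as a dash near 0. A/J 2 reaches -0.87 in the top panel and PWK/PhJ 3 reaches 1.78 in the bottom panel.

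Hspb1 (HSP27, a small heat shock protein) had its own strain pattern. It was at 9.41, 12.1 and 13.4 CPM in NOD/ShiLtJ, where it rose by 2.41 (SE 0.27, adjusted p = 4.71e-07). It was at 0.887, 0.755 and 0.722 CPM in CAST/EiJ and at 0.822, 0.655 and 0.948 CPM in A/J. Every library of the other 7 strains was at 1.37 CPM or more. It fell by 1.94 in CAST/EiJ (SE 0.43, adjusted p = 0.000907) and fell by 1.90 in A/J (SE 0.44, adjusted p = 0.00238). In C57BL/6J it was called higher, but at 9.60, 4.39 and 2.36 CPM, and without C57BL/6J 1 the value went from 1.19 to 0.49 (adjusted p = 0.342). Hsp90aa1, the inducible HSP90, was highest in DBA/2J, at 276, 239 and 205 CPM, and lowest in 129S1/SvImJ, at 73.7, 116 and 78.4 CPM. Its increase of 0.75 in DBA/2J (adjusted p = 0.0409) became 0.71 and was not called with near-identical genes summed.

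Hspa8 (HSC70, the constitutive HSP70) shares much of its sequence with other genes of the table. It was at 643, 883 and 539 CPM in C57BL/6J, above 23 of the 24 other libraries, and rose there by 1.39 (SE 0.20, adjusted p = 2e-05). Of its 75-base stretches 41.3% occur in other annotated genes, mostly Gm15459 (36.8%), Gm26825 (36.0%) and Gm8355 (17.1%). In C57BL/6J these 3 had means of 0.656, 0.388 and 0 CPM. In WSB/EiJ their means were 382, 210 and 63.0 CPM, and in CAST/EiJ 64.5, 289 and 138 CPM. The sum with these genes was 689 ± 177 CPM (SD, n = 3) in C57BL/6J, 1016 ± 307 CPM (SD, n = 3) in WSB/EiJ, 834 ± 164 CPM (SD, n = 3) in CAST/EiJ and 506 ± 26.2 CPM (SD, n = 3) in A/J. On the sum, the C57BL/6J difference was 0.06 (adjusted p = 0.906), and the calls in A/J, NZO/HlLtJ and PWK/PhJ were also lost, with PWK/PhJ at -0.25.

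**Figure D5:**
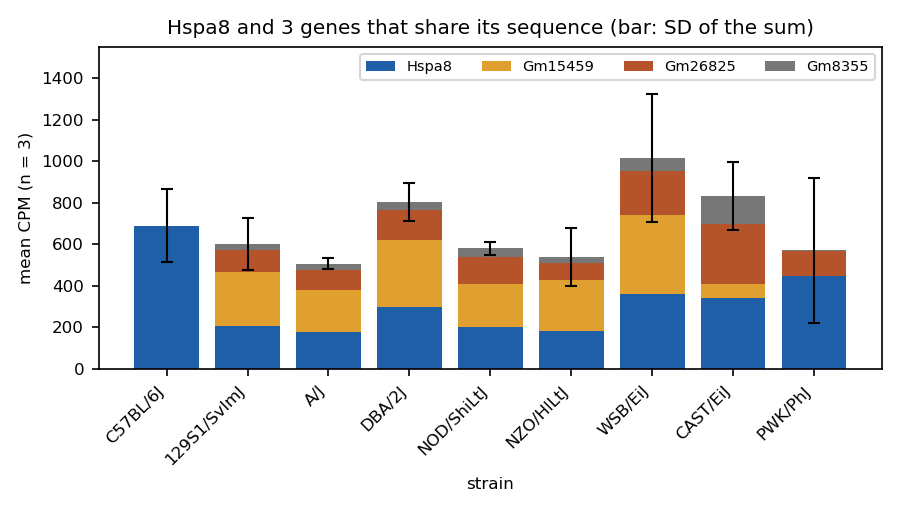
Stacked bars of mean CPM (n = 3) of Hspa8 and of 3 genes that share its sequence, by strain; the error bar is the SD of the sum. C57BL/6J is the only strain whose bar is nearly all Hspa8, while the sum is highest in WSB/EiJ.

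Both mitochondrial chaperonin genes were high in NOD/ShiLtJ. Hspd1 (HSP60) and Hspe1 (HSP10) stand head to head on chr1, their annotated starts 111 bases apart (GRCm38, Hspd1 chr1:55077835-55088243 on the minus strand and Hspe1 chr1:55088132-55091307 on the plus strand). A RefSeq window of each gene holds 2 overlapping matches to the heat shock element (GAA, TTC and GAA, each 2 bases apart), the known site of HSF1. Of all windows 0.603% hold any match. Both matches lie before the Hspe1 start and before a RefSeq start of Hspd1, but inside the GENCODE model of Hspd1. The stretch is printed with both matches in capitals.
Hspe1 (GRCm38.p6, chr1:55088053-55088082, plus strand): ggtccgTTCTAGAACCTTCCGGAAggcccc
The other member with a match was Hsph1, just after a start site. No match to these letters was found in the windows of Hspa1a and Hspa1b.

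Hspd1 was at 465, 506 and 467 CPM in NOD/ShiLtJ and Hspe1 at 104, 133 and 115 CPM. For both genes these 3 libraries were above the other 24, which reached 443 CPM in CAST/EiJ 5 for Hspd1 and 85.1 CPM in PWK/PhJ 3 for Hspe1. Of all tested genes 0.649% were so placed in NOD/ShiLtJ. The log2 fold changes were 0.66 (SE 0.14, adjusted p = 0.00164) and 1.12 (SE 0.15, adjusted p = 7.1e-06). Both genes fell in C57BL/6J, by 0.46 and 0.66, and in A/J, by 0.47 and 0.79; with the marker covariates only the A/J fall of Hspe1 was called, Hspd1 being at -0.19 and -0.34 and Hspe1 in C57BL/6J at -0.53. Hspd1 also rose in CAST/EiJ, at 417, 420 and 443 CPM, a call lost with the marker covariates (0.34, adjusted p = 0.0747). The starts of the gene models overlap on opposite strands, so without strand information reads in the overlap cannot be assigned to either gene, and 33.7% of the 75-base stretches of Hspd1 occur elsewhere, mostly in Hspd1-ps3, which had at most 0.460 CPM in a library.

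Over all members, 14 were called in C57BL/6J, 19 in 129S1/SvImJ, 20 in A/J, 6 in DBA/2J, 4 in NOD/ShiLtJ, 10 in NZO/HlLtJ, 13 in WSB/EiJ, 6 in CAST/EiJ and 13 in PWK/PhJ. Of all tested genes 18.1%, 18.4%, 27.5%, 13.3%, 14.9%, 27.6%, 24.7%, 37.9% and 34.2% were called in these strains. Of these members 12 were higher in C57BL/6J, 1 in 129S1/SvImJ, 11 in A/J, 4 in DBA/2J, 3 in NOD/ShiLtJ, 1 in NZO/HlLtJ, 13 in WSB/EiJ, 3 in CAST/EiJ and 6 in PWK/PhJ. In the same order of strains 11.6%, 10.5%, 15.9%, 9.5%, 9.2%, 14.8%, 15.5%, 20.1% and 19.4% of all genes were higher, and 6.5%, 7.86%, 11.6%, 3.78%, 5.72%, 12.9%, 9.25%, 17.8% and 14.8% lower. Of the 105 calls of a member in a strain, 47 were not called with the marker covariates. All 47 values had the same direction as without the covariates, 36 were closer to 0, and 37 lay within 1 SE of the value without them. In C57BL/6J the members' count was 5 without C57BL/6J 2 or C57BL/6J 4, in 129S1/SvImJ 6 without 129S1/SvImJ 1 or 2, and in A/J 4 without A/J 3 and 10 without A/J 1. In DBA/2J it was 3 without DBA/2J 2 or 3. In NZO/HlLtJ it was 2, 6 and 5 without NZO/HlLtJ 1, 2 and 3. In WSB/EiJ it was 7 and 8 without WSB/EiJ 2 and 4, and in PWK/PhJ 8 and 6 without PWK/PhJ 1 and 3.

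Wider lists of the same pathways gave the surrounding picture. Of 59 tested further ER folding, degradation and trafficking genes, 54 had a strain effect (91.5%), as had 31 of 38 further integrated stress response genes (81.6%) and 39 of 51 further folding and heat shock genes (76.5%), beside 74.2% of all genes. In the wider ER list 20 fell and 2 rose in 129S1/SvImJ (median -0.37), 25 rose and 2 fell in A/J (median 0.34), and 29 rose and 0 fell in WSB/EiJ (median 0.37). Of all genes 7.86% fell in 129S1/SvImJ, 15.9% rose in A/J and 15.5% rose in WSB/EiJ. In C57BL/6J 9 rose and 0 fell, where 11.6% of all genes rose. In NZO/HlLtJ 19 fell and 4 rose, and in CAST/EiJ 19 fell and 5 rose, where 12.9% and 17.8% of all genes fell. In PWK/PhJ 6 fell and 1 rose, with a median of -0.05, where 14.8% of all genes fell. In the wider folding list 16 fell and 1 rose in A/J (median -0.30), 16 rose and 2 fell in CAST/EiJ (median 0.15), and 11 rose and 3 fell in NZO/HlLtJ (median 0.19). Of all genes 11.6% fell in A/J, 20.1% rose in CAST/EiJ and 14.8% rose in NZO/HlLtJ. In WSB/EiJ, where 5 heat shock members rose, 3 of the folding list rose and 1 fell (median -0.04), while 15.5% of all genes rose. Ero1lb, an oxidase that feeds disulfide isomerases, had the largest F of the ER list, from 97.2 ± 18.2 CPM (SD, n = 3) in C57BL/6J to 16.5 ± 1.87 CPM (SD, n = 3) in PWK/PhJ. Sil1, a nucleotide exchange factor of BiP, ran from 95.9 ± 7.68 CPM (SD, n = 3) in WSB/EiJ to 24.8 ± 7.78 CPM (SD, n = 3) in PWK/PhJ. Cth, which makes cysteine, ran from 1009 ± 263 CPM (SD, n = 3) in CAST/EiJ to 204 ± 44.4 CPM (SD, n = 3) in A/J, and Ndrg1 from 54.3 ± 15.5 CPM (SD, n = 3) in DBA/2J to 3.76 ± 0.517 CPM (SD, n = 3) in WSB/EiJ. In the folding list Cct6a, a subunit of the cytosolic chaperonin, ran from 72.4 ± 4.19 CPM (SD, n = 3) in CAST/EiJ to 22.8 ± 2.99 CPM (SD, n = 3) in NOD/ShiLtJ.

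The replicate number, which the strains share in the labels, was tested as a term beside the strain. No member and none of the tested genes passed edgeR's test, and 453 genes (3.13%) had an unadjusted p under 0.05. Among these were 4 members: Herpud1 (adjusted p = 0.572), Ppp1r15a, Hspa1a and Hspa1b, with Bag3 next. Replicate 3 held the highest Herpud1 level of its strain in A/J (668 CPM), 129S1/SvImJ (613 CPM) and PWK/PhJ (347 CPM). The same held in DBA/2J (337 CPM), NZO/HlLtJ (200 CPM) and NOD/ShiLtJ (300 CPM). In WSB/EiJ it was the lowest, at 241 CPM against 511 CPM in WSB/EiJ 2. C57BL/6J, with its highest level of 471 CPM in C57BL/6J 2, and CAST/EiJ had no replicate 3. DESeq2, a fit without the filter, and the fit without WSB/EiJ 3 each called 1 member, Herpud1.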

How the data were processed

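The authors deposited a table of estimated counts per Ensembl gene for 27 libraries, not scaled to depth; of its values 11.1% lay more than 1e-06 from a whole number. Per the labels' protocols, polyadenylated RNA was selected and a TruSeq RNA kit (v2) was used, whose name states no strand-specific step. Per the submitters' processing notes, FastQC 0.11.5, DESeq2 and GRCm38 were used; the aligner and the counting program are not given in the sources used here, nor whether reads of each strain were aligned to its own genome.

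Estimated counts were first rounded. Genes were kept with filterByExpr, scaled by TMM (factors 0.722 to 1.226) and tested with edgeR 4.0.16 in R 4.3.3 by the quasi-likelihood test in a single model of all 27 libraries with strain as the factor. Adjusted p-values are Benjamini-Hochberg values over the 14482 tested genes, called under 0.05. Log2 fold changes compare a strain with the mean of the other 8 on the fitted log2 scale. Libraries of a strain were compared on log2 CPM (prior count 2). Coordinates and symbols came from GENCODE M21 (GRCm38), sequences from RefSeq (GRCm38.p6). Motifs were searched on both strands of 300-base windows. Sequence sharing was counted over 75-base stretches of annotated transcripts; genes sharing at least 10% were summed in an alternative. Without strand information, reads where Hsp90b1, Pdia3, Pdia6, Dnajb9, Dnajb11, Manf, Herpud1, Syvn1, Eif2ak3, Ddit3, Ppp1r15a, Hspa1a, Hspd1 and Hspe1 overlap a gene on the opposite strand cannot be told apart.

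The members and lists were chosen with earlier results of these data known. Genes were named by a rule, with library values or ranges given for the strains discussed (for Ddit3, the extremes and strain means). The rule took Hspa5, Xbp1, Atf4, Ddit3, Hsf1, Hspa1a and Hspa1b. It added the 3 members of each role group with the largest F (2 for the chaperonin). Also taken were the called member with the largest increase and decrease in each strain, and the 5 members with the largest F for the replicate number. Of each wider list the 2 genes with the largest F and a mean of at least 5 CPM were named; 1 of these genes is not reported here. Within strains, libraries differed by a chi-square of 24.9 to 138 per degree of freedom, so none was a repeat deposit. Same-numbered libraries of different strains did not vary together (median correlation 0.02, above 0.1 in 17 of 76 pairs), so the number was not used as a pairing. The script was tested on simulated data.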

Additional observations from a re-analysis of the deposited data

How the results depend on the processing

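The number of members with a strain effect (37) stayed between 33 and 41 under the alternatives and between 34 and 39 without single libraries. Without single libraries the members called per strain ranged from 5 to 20 in C57BL/6J, 6 to 21 in 129S1/SvImJ, 4 to 24 in A/J, 3 to 8 in DBA/2J, 3 to 5 in NOD/ShiLtJ, 2 to 12 in NZO/HlLtJ, 7 to 17 in WSB/EiJ, 5 to 9 in CAST/EiJ and 6 to 17 in PWK/PhJ, and 0 to 1 for the replicate number; fewer libraries also mean less power. With the replicate block 35 members had a strain effect, and the CAST/EiJ count went from 6 to 3, while the other strains' counts stayed within 1.5 times; the strain effects of Hsph1 (adjusted p = 0.0848) and Hsf1 (adjusted p = 0.0627) were lost, as were 21 of 105 calls of a member in a strain, 20 of them with values within 1 SE: Hyou1 in C57BL/6J, Dnajc3, Sdf2l1, Manf and Atf6 in 129S1/SvImJ, Pdia4, Ern1 (0.36), Atf4 and Hspd1 in A/J, Hsp90aa1 in DBA/2J (0.68), Atf6 and Hsf1 (-0.31) in NZO/HlLtJ, Canx, Dnajb9 (0.61) and Dnajb1 (0.74) in WSB/EiJ, Ern1 (-0.44), Eif2ak3 (-0.47) and Hspd1 in CAST/EiJ, and Hspa5, Pdia4 and Hyou1 in PWK/PhJ; the ER genes called went from 5 to 2 lower in PWK/PhJ and from 5 to 3 higher in WSB/EiJ; 7 of 27 libraries correlated best with their own number. With Kupffer and endothelial covariates the counts were 4 for C57BL/6J (from 14), 10 for 129S1/SvImJ (from 19), 8 for A/J (from 20) and 1 for NZO/HlLtJ (from 10), and against C57BL/6J alone they were 4 for A/J, 9 for NOD/ShiLtJ (from 4), 16 for NZO/HlLtJ, 6 for WSB/EiJ (from 13) and 14 for CAST/EiJ. Without A/J 2, C57BL/6J 1 and PWK/PhJ 3, an alternative chosen after seeing the data, as were summing near-identical genes and removing the GC trend, NOD/ShiLtJ had 7 and CAST/EiJ 12. The replicate number called 1 member without the filter and 1 with DESeq2. Hspa1b in PWK/PhJ ranged from -0.59 (without PWK/PhJ 3) to 2.54 without single libraries and reversed to -0.59 without the 3 libraries, where the library left out held the high value. Hspa8 in PWK/PhJ reversed to -0.25 with near-identical genes summed. The cause of the other moves was not tested. Depth limits Asns and Chac1, with counts below 50 in the libraries that carry their results, and 3 libraries per strain limit every comparison.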
